A study of Homo sapiens with 6 samples.

Results

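The genes described here encode the lamins of the nuclear lamina, their partners at the inner nuclear membrane, and the enzyme lipin-1. They are LMNA, LMNB1, LMNB2, LBR, TMPO, EMD, LEMD3, NRM and LPIN1, and were chosen by name from what is known of their proteins and with earlier results of these arrays in view. All 9 were measured, each by 1 probe set, among 14884 named genes. Expression was read on 6 whole-transcript microarrays of U-2 OS, an osteosarcoma cell line of human origin. On 3 arrays the cells carried a retroviral vector for wt-progerin, and on 3 a vector for S22A-progerin. Both groups were selected in 5 µg/ml puromycin for 3 days, and RNA was taken 4 days after infection. Both therefore express progerin, the shortened lamin A of Hutchinson-Gilford progeria that keeps its farnesyl anchor, and no array of cells without it was analysed here. In S22A-progerin, alanine replaces serine at residue 22, which lies before the coiled rod of lamin A and is phosphorylated when the lamina comes apart at mitosis. Whether the infected cells were kept as a pool or as clones is not given in the sources used here. In bulk RNA a change in how many cells express a gene cannot be told apart from a change in RNA per cell.

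Lamins are intermediate filament proteins that line the inside of the nuclear envelope. A-type lamins come from LMNA, and B-type lamins from LMNB1 and LMNB2 keep a farnesyl anchor throughout life. LBR, the membrane-bound LAP2 proteins of TMPO, emerin (EMD) and MAN1 (LEMD3) sit in the inner membrane and bind lamins, chromatin or both. Nurim (NRM) also sits in that membrane, while lipin-1 (LPIN1) makes diacylglycerol from phosphatidate and shapes how much membrane a nucleus has. When a cell enters mitosis, kinases phosphorylate lamins and their partners and the whole assembly disperses. Loss of LMNB1 transcript is a widely used marker of senescent cells.

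Both B-type lamins, LBR and TMPO were lower in S22A-progerin cells, whereas LPIN1 was higher and LMNA did not pass the test. EMD, LEMD3 and NRM were lower too, but each lost its call in some of the fits that left out 1 array. Of the 9 genes, 7 fell (LMNB1, LMNB2, LBR, TMPO, EMD, LEMD3 and NRM), 1 rose (LPIN1) and 1, LMNA, did not pass. The test was limma across all named genes, 3 arrays against 3, and a gene passed at a Benjamini-Hochberg adjusted p under 0.05. Among all tested genes 14.6% passed as lower, 10.8% as higher and 25.4% in either direction. In all 9 genes the groups had no overlap, which was so in 42.1% of all tested genes. S22A-progerin was the lower group in 7 of them and the higher in 2, against 23.6% and 18.5% of all tested genes. The median difference of the 9 was -0.39, and that of all tested genes was close to 0. A difference here is S22A-progerin minus wt-progerin, in log2 units, and values are log2 expression after RMA, which normalizes arrays to each other. The labels call the replicates independent, and p-values rest on the spread among the arrays alone.

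**Figure D1:**
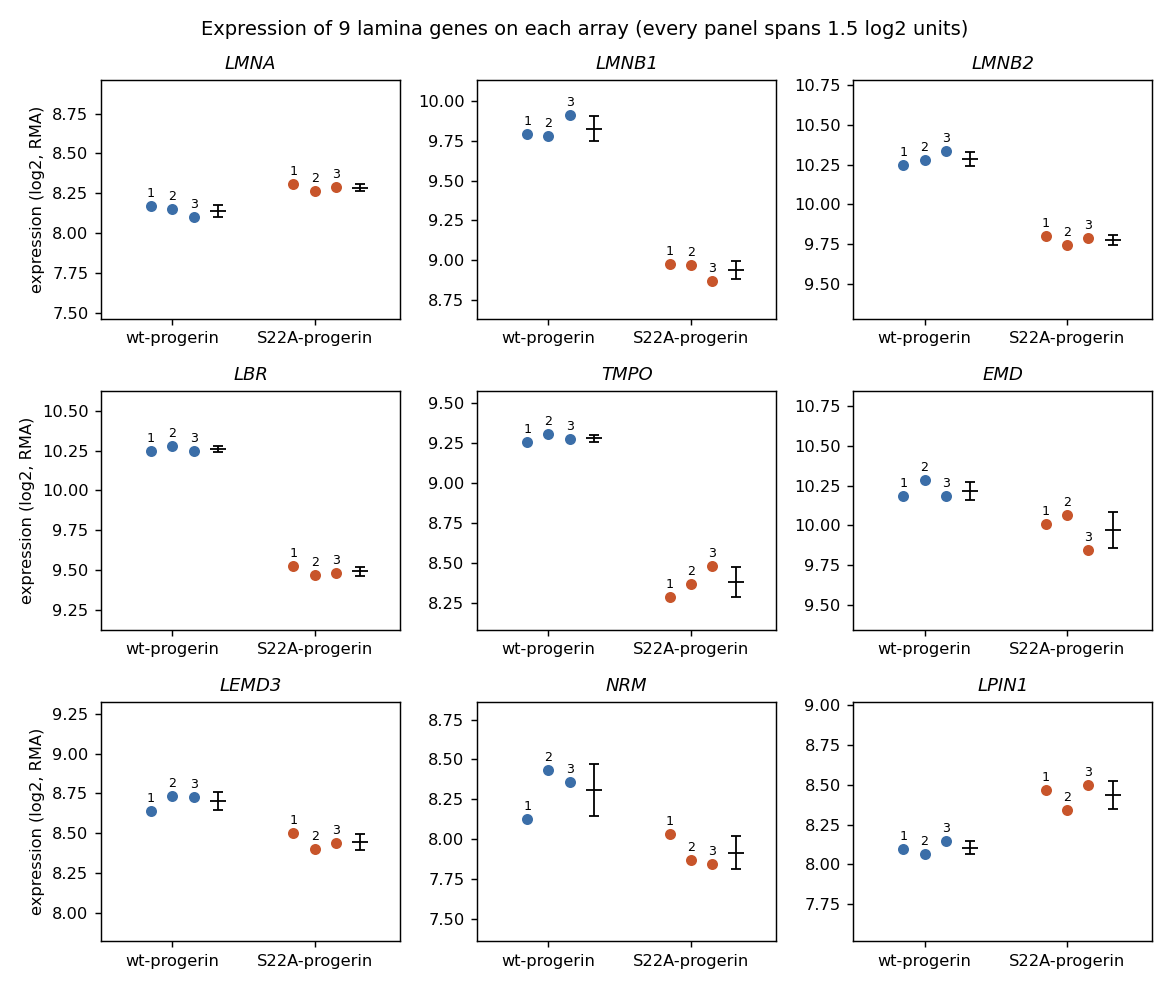
Log2 expression (y axis) of each of the 9 genes on each array, in wt-progerin (blue) and S22A-progerin (orange) cells. Points carry their replicate number, the black mark is the group mean with its SD (n = 3), and every panel spans the same log2 range. The groups are far apart in LMNB1, LMNB2, LBR and TMPO and close in LMNA, EMD and NRM.

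The medians of the arrays over all probe sets were 6.044, 6.037 and 6.038 in wt-progerin and 6.05, 6.082 and 6.089 in S22A-progerin. Each S22A-progerin median thus lay slightly above each wt-progerin median. Over the 9 genes, the median deviation from the group mean was between -0.033 and 0.033 on every array. The ends of that range were the replicate 1 arrays. On wt-progerin replicate 1, 1 of 9 genes lay above its group mean, and on S22A-progerin replicate 1, 8 of 9 did. Of the listed osteoblast markers 6 of 11 were analysed, of which 1 fell, 1 rose and 4 did not pass. SPP1, osteopontin, rose by 1.18, from 7.13, 7.13 and 7.29 in wt-progerin to 8.47, 8.28 and 8.32 in S22A-progerin. RUNX2, the transcription factor that sets the osteoblast lineage, fell by 0.74 on the log2 scale, from 8.72 to 8.85 in wt-progerin to 7.93 to 8.20 in S22A-progerin. SP7, which acts after it, lay at 6.14 to 6.31 over all arrays. IBSP, bone sialoprotein, lay at 3.73 to 4.11, near the low end of a table that runs from 1.27 to 14.05. ALPL, COL1A1 and BGLAP, further bone markers, were not analysed here. Of 8 leukocyte markers 4 were analysed, with a mean per array of 6.28 to 6.39 in wt-progerin and 6.72 to 6.92 in S22A-progerin. CD68 alone of them passed, with a rise of 1.48, from 8.22, 8.41 and 8.32 in wt-progerin to 9.88, 9.72 and 9.79 in S22A-progerin. The differences of CD14 (0.18), LYZ (0.26) and TYROBP (0.17) were smaller and did not pass. CD14 was read at 5.50 to 5.93 and LYZ at 4.52 to 5.10. This list had 2 rises without wt-progerin replicate 1 and also without S22A-progerin replicate 3. Of 5 epithelial markers, KRT18 alone passed, also as higher, and without wt-progerin replicate 3 there was 1 fall too.

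LMNA, which encodes lamins A and C, was not among the genes that passed. Its intensity was 8.17, 8.15 and 8.10 on the wt-progerin arrays and 8.31, 8.26 and 8.29 on the S22A-progerin arrays. Every S22A-progerin array lay above every wt-progerin array, by a gap of 0.091 between the nearest. The difference was 0.15 with an interval of 0.026 to 0.266, and it missed the threshold (limma adjusted p = 0.0796), although the interval, which is not adjusted for the number of genes, leaves out 0. The call depends on the setting. LMNA passed when quantile normalization was repeated (0.17, adjusted p = 0.0456) and when the dimmer 50% of genes were dropped (adjusted p = 0.0237). It did not pass with the arrays centred on the median, where the difference was smaller (0.11, adjusted p = 0.209). Nor did it pass with the replicate number as a fixed block (0.15, adjusted p = 0.179). Without any 1 array the adjusted p ran from 0.113 to 0.231. Progerin made from the vector shares most of its coding sequence with LMNA, so the signal may hold transcripts of both, and where the probes lie was not checked here. The value does not show which form of progerin a culture carried.

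LMNB1 encodes lamin B1. Its values were 9.79, 9.78 and 9.91 with wt-progerin and 8.97, 8.97 and 8.87 with S22A-progerin. The gap of 0.80 between the nearest arrays is far wider than the range within either group, which was 0.14 and 0.10. LMNB1 fell by 0.89 on the log2 scale (SE 0.063, 1.85-fold, limma adjusted p = 1.27e-04). Of all tested genes, 0.820% had a lower difference.

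LMNB2 encodes lamin B2, the other B-type lamin. The wt-progerin arrays gave 10.25, 10.28 and 10.33, and the S22A-progerin arrays 9.81, 9.74 and 9.79. LMNB2 fell by 0.51 on the log2 scale (SE 0.053, 1.42-fold, adjusted p = 6.30e-04), and 4.21% of tested genes had a lower difference. The tight groups lay 0.44 apart at their nearest arrays.

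The 3 lamin genes can be set against each other within each array. LMNB1 minus LMNA was 1.62, 1.63 and 1.81 on the wt-progerin arrays and 0.67, 0.71 and 0.58 on the S22A-progerin arrays. That is a change of -1.03 (SE 0.073). For LMNB2 minus LMNA the change was -0.65 (SE 0.046), and for LMNB1 minus LMNB2 it was -0.38 (SE 0.049). In each pair the groups did not overlap, and the two-sided exact permutation test over the 6 arrays gave p = 0.1, the smallest that 3 against 3 arrays allow. These 3 pairs and 3 more given further on were picked with the results known, and p adjusted over the 6 pairs was also 0.1.

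**Figure D2:**
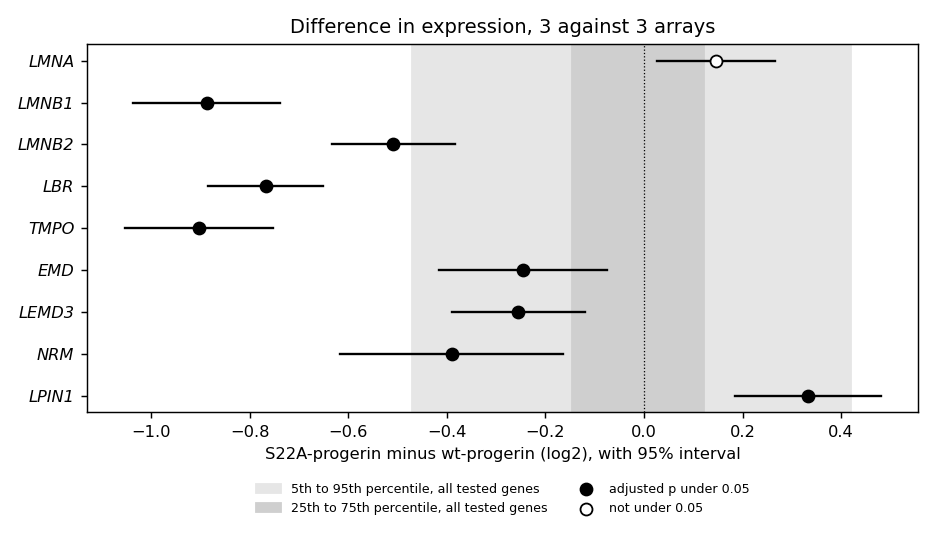
Difference of each gene between S22A-progerin and wt-progerin (x axis, log2) with its 95% interval from limma. Filled points passed at an adjusted p under 0.05. The grey bands hold the middle of all 14884 tested genes, and LMNB1, LMNB2, LBR and TMPO lie to the left of the wider band.

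LBR, the lamin B receptor, spans the inner membrane, binds B-type lamins and heterochromatin protein 1, and carries a sterol reductase activity. Its values were 10.25, 10.28 and 10.25 in wt-progerin and 9.52, 9.47 and 9.48 in S22A-progerin. The arrays of a group agreed within 0.052, and the groups lay 0.72 apart. LBR fell by 0.77 on the log2 scale (SE 0.050, 1.70-fold, adjusted p = 9.38e-05), the smallest adjusted p of the 9 genes.

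TMPO encodes the LAP2 proteins, of which the membrane-bound forms tie lamin B to the envelope and LAP2 alpha works with A-type lamins inside the nucleus. Its wt-progerin values were 9.26, 9.31 and 9.28, and its S22A-progerin values 8.29, 8.37 and 8.48. The S22A-progerin arrays spread over 0.19, about as widely as NRM there, but stayed 0.78 below the lowest wt-progerin array. TMPO fell by 0.90 on the log2 scale (SE 0.064, 1.87-fold, adjusted p = 1.26e-04). With 1 probe set the LAP2 forms cannot be told apart.

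EMD encodes emerin, a LEM domain protein lost in X-linked Emery-Dreifuss muscular dystrophy. Expression was 10.18, 10.28 and 10.19 with wt-progerin and 10.01, 10.06 and 9.85 with S22A-progerin. The groups were 0.12 apart, and the S22A-progerin arrays alone spread over 0.22. EMD fell by 0.25 on the log2 scale (SE 0.072, 1.19-fold), just inside the threshold (limma adjusted p = 0.0456). The call was lost without wt-progerin replicate 1 (-0.26, adjusted p = 0.0925), replicate 2 (-0.21, 0.140) or replicate 3 (-0.26, 0.0966). It was also lost without S22A-progerin replicate 1 (-0.26, adjusted p = 0.0807) or replicate 3 (-0.18, 0.0796), and when quantile normalization was repeated (-0.22, 0.0717).

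LEMD3 encodes MAN1, a LEM domain protein that also restrains TGF-beta and BMP signalling by binding SMADs. Its values were 8.64, 8.74 and 8.73 in wt-progerin and 8.50, 8.40 and 8.44 in S22A-progerin, and the groups lay 0.14 apart. LEMD3 fell by 0.26 on the log2 scale (SE 0.057, 1.19-fold, limma adjusted p = 0.0164). The call was lost without wt-progerin replicate 2 (-0.24, adjusted p = 0.0637) or replicate 3 (-0.24, 0.0666), or without S22A-progerin replicate 2 (-0.23, 0.0514).

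Among the 3 LEM domain genes, TMPO had the lowest difference. TMPO minus EMD went from -0.92, -0.98 and -0.91 on the wt-progerin arrays to -1.72, -1.70 and -1.37, a change of -0.66 (SE 0.115). TMPO minus LEMD3 changed by -0.65 (SE 0.078). The groups did not overlap in either pair (two-sided exact permutation p = 0.1, the smallest possible here).

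NRM encodes nurim, a multispanning protein tightly held in the envelope. It had the widest wt-progerin range of the 9 genes, 0.31, with values of 8.12, 8.44 and 8.36 in wt-progerin and 8.03, 7.87 and 7.84 in S22A-progerin. Replicate 1 was the lowest of the wt-progerin arrays and the highest of the S22A-progerin arrays, and the groups were 0.091 apart. NRM fell by 0.39 on the log2 scale (SE 0.096, 1.31-fold, limma adjusted p = 0.0232). The call was lost without wt-progerin replicate 2 (-0.33, adjusted p = 0.0728) or replicate 3 (-0.36, 0.0789), or without S22A-progerin replicate 2 (-0.37, 0.0742) or replicate 3 (-0.35, 0.0663). LBR minus NRM changed by -0.38 (SE 0.097; two-sided exact permutation p = 0.1, the smallest possible here).

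LPIN1, lipin-1, was the member that rose. Its values were 8.10, 8.07 and 8.15 in wt-progerin and 8.47, 8.34 and 8.50 in S22A-progerin, with a gap of 0.19. The rise was 0.33 (SE 0.063, 1.26-fold, adjusted p = 0.00829), and 92.4% of tested genes had a lower difference. LPIN1 kept its call with any 1 array left out, as did LMNB1, LMNB2, LBR and TMPO.

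**Figure D3:**
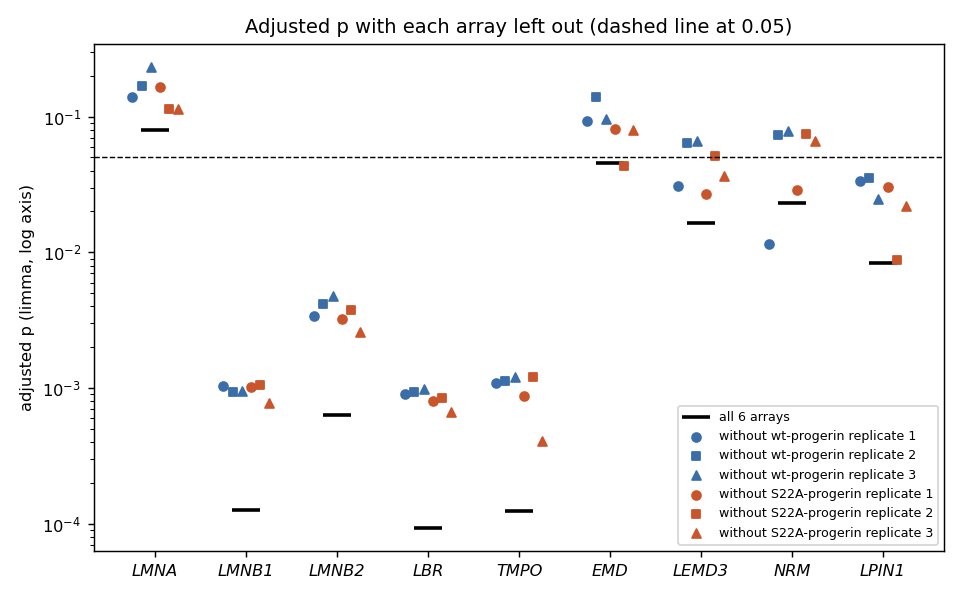
Adjusted p from limma (y axis, log scale) for each gene with all 6 arrays (black bars) and with each array left out in turn (coloured points). LMNB1, LMNB2, LBR, TMPO and LPIN1 stay under the dashed line at 0.05, LMNA stays above it, and EMD, LEMD3 and NRM cross it.

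The members lie on separate chromosomes, apart from LMNA and LBR on chromosome 1 and TMPO and LEMD3 on chromosome 12. Of the 18 tested genes next to them on either side, 6 fell, 1 rose and 11 did not pass. Among all tested genes 14.6% passed as lower and 10.8% as higher. PHAX (-0.05) and C5orf63 (-0.20), on either side of LMNB1, did not pass, nor did IKBIP (0.08) beside TMPO. On the other side of TMPO, TMPO-AS1, a noncoding RNA named as its antisense partner, fell by 0.67 on the log2 scale (SE 0.058, limma adjusted p = 2.97e-04). Whether the probes of TMPO and TMPO-AS1 read separate strands was not checked here, so their signals may not be independent. Both tested neighbours of NRM fell, DHX16, an RNA helicase gene, by 0.26 and MDC1, which encodes a DNA damage mediator, by 0.31. MEX3A, next to LMNA, fell by 0.63, while LMNA itself did not pass. Of the genes beside LBR, CNIH3 rose (0.39) and ENAH, an actin regulator, fell (-0.60).

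Promoter sequences are shown for the 3 largest falls, LMNB1, TMPO and LBR, and for LMNA, the lamin gene that did not fall. They come from RefSeq on GRCh38.p14, which held all 9 genes with 17 start sites, and each is the 250 bases before a start site, 5′ to 3′ on the gene's strand. Capitals mark letters searched for on both strands, which were CCAAT, the CHR letters TTTGAA and TTCGAA found before many genes of the cell cycle, and the E2F core letters TTTCCCGC, TTTGGCGC, TTTCGCGC and TTTGCCGC. No match overlaps another in these windows. The LMNB1 window is chr5:126776886-126777135 on the plus strand, before the downstream of its start sites. The TMPO window is chr12:98515323-98515572, plus strand. The LBR window is chr1:225428822-225429071, minus strand, and the LMNA window is chr1:156082323-156082572, plus strand. The LMNB1 and LMNA windows are shown because they hold matches, and no motif was found in the other window of LMNB1 or in the other two of LMNA.
LMNB1: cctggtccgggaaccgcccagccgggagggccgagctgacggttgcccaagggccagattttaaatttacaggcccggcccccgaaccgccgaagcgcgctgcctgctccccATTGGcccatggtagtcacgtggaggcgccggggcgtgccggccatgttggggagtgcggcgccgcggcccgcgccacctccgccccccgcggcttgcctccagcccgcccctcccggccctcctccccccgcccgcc
TMPO: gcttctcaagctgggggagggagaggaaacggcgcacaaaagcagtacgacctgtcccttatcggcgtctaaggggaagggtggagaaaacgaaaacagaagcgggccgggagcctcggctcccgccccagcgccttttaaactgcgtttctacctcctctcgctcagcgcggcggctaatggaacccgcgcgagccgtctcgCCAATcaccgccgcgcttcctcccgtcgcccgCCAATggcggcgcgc
LBR: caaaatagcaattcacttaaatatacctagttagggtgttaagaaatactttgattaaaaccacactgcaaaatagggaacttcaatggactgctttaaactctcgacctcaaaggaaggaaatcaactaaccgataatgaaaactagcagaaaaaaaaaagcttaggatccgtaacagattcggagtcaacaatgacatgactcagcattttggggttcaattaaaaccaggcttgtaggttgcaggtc
LMNA: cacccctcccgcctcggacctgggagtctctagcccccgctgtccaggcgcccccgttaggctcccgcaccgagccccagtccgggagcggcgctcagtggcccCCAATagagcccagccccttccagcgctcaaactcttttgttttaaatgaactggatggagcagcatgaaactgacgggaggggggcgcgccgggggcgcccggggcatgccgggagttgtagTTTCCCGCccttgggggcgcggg

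No motif is in all of these windows. CCAAT stands at 138 bases before the LMNB1 start, read on the opposite strand as ATTGG, and at 47 and 15 bases before the TMPO start. The LBR window holds none of the motifs, and the LMNA window shown, 1 of 3 for a gene that did not fall, holds both CCAAT and TTTCCCGC. Over all members CCAAT is in 6 of 17 windows (35.3%), against 32% of 35116 windows of all genes. Those 6 windows belong to 5 of the 9 genes, and the share per gene over all genes was not worked out. The windows of TMPO overlap, so its matches count in both. An E2F core is in 2 of 17 member windows, those of LMNA and LEMD3, against 2.79% of all windows, and CHR letters are in 1, that of LMNB2, against 14.3%. A match is a description of the letters only.

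Genes that work with these proteins were read from 13 lists, of which 83 of 122 genes were measured. The lists were drawn up with earlier results known, so their counts are descriptions. In the LINC complex, which couples the lamina to the cytoskeleton, 2 of 6 genes were measured and both fell. SUN2 went from 7.99, 8.05 and 8.10 to 7.49, 7.32 and 7.23, a fall of 0.70 on the log2 scale, and SUN1 fell by 0.36. The nesprin genes were not analysed here.

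Other LEM domain genes and their DNA-bridging partner BAF did not all move to 1 side. Of 6 measured, 1 fell, 1 rose and 4 did not pass, with a median of 0.03. ANKLE2, which promotes dephosphorylation of BAF after mitosis, fell by 0.36. LEMD1, a LEM domain gene best known from testis, rose by 0.88 from low values of 5.14, 5.56 and 5.60 to 6.50, 6.31 and 6.14. It is among the dimmer genes, so the fit without those did not test it. BANF1, which encodes BAF, had a difference of -0.04 (SE 0.048) and LEMD2 of -0.06.

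Of 9 other envelope membrane genes 2 fell, 1 rose and 6 did not pass, with a median of -0.01. NEMP2, a nuclear envelope membrane protein, rose by 0.71 (SE 0.066, adjusted p = 4.06e-04), while its paralogue NEMP1 fell by 0.24 (adjusted p = 0.0455). TMEM120B fell by 0.27. NEMP1 lost its call with any 1 array left out, and TMEM120B without wt-progerin replicate 1 or wt-progerin replicate 2, which left 0 falls in the list. The lamin-binding proteins TOR1AIP1 (0.13) and TMEM43 (-0.01) did not pass.

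Of 8 genes for resealing the envelope after mitosis 1 fell, none rose and 7 did not pass, with a median of 0.09. There were 2 rises when quantile normalization was repeated, without the dimmer genes and with trend and robust priors. SPAST, which cuts spindle microtubules at the reforming envelope, fell by 0.35 on the log2 scale. CHMP7 (-0.14), which recruits the ESCRT machinery to the envelope, did not pass.

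Of 8 genes for making and trimming the farnesylated tail of lamins, 3 were measured. ICMT, which methylates the farnesylated cysteine, fell by 0.38, and FDPS, which makes the farnesyl donor, fell by 0.19 on the log2 scale (adjusted p = 0.0408). The FDPS call was lost with any 1 array left out, which left 1 fall in the list. ZMPSTE24, the protease that cuts prelamin A and whose final cut progerin escapes, gave 11.12, 11.09 and 11.18 with wt-progerin and 11.10, 11.10 and 11.15 with S22A-progerin. Those groups overlapped, and the difference was -0.01 (SE 0.053).

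Of 9 heterochromatin partners 6 fell, none rose and 3 did not pass, with a median of -0.23. CBX5 (-0.51), CBX1 (-0.46) and CBX3 (-0.23) encode the heterochromatin protein 1 forms, and LBR binds such proteins. SUV39H1 (-0.33) and SUV39H2 (-0.33), which methylate histone H3 in heterochromatin, fell too. EHMT2 (0.02) and PRR14 (0.04), a tether of heterochromatin to the lamina, did not pass. CBX3 and EHMT1 (-0.20) each kept the call in 1 of the 6 fits that left out an array. The list had 3 falls without wt-progerin replicate 1 and also without wt-progerin replicate 3, where SUV39H2 missed as well.

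Of the lipid genes around LBR and LPIN1, those of sterol synthesis after lanosterol had 2 of 6 that rose and 4 that did not pass, beside the 25.4% of all tested genes that passed. MSMO1 rose by 0.40 (SE 0.050) and NSDHL by 0.18 (adjusted p = 0.0404), a call kept in 1 of the 6 fits that left out an array. With the arrays centred on the median the list had 1 rise and 1 fall. It had 3 rises and 1 fall without the dimmer genes or with trend and robust priors. TM7SF2, the sterol reductase that does the same step as LBR, had a difference of -0.02 (SE 0.057). Among 7 genes of lipins and phosphatidate, GPAT3, which starts glycerolipid synthesis, rose by 0.38 and 6 did not pass. The list had 2 rises without S22A-progerin replicate 3, with array weights or with the replicate number as a fixed block. Without the dimmer genes, or with trend and robust priors, this list had 3 rises and 1 fall. LPIN3 had a difference of 0.40 (SE 0.141, limma adjusted p = 0.0793) and LPIN2 of 0.05. CTDNEP1, the phosphatase that activates lipin-1 at the envelope, was at -0.12 and did not pass.

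Markers of proliferating cells were lower along with the members. All 16 measured of 18 listed fell, while 14.6% of all tested genes passed as lower. S22A-progerin was the lower group without overlap in all 16, against 23.6% of all tested genes. The 16 markers had a median of -0.58. Their mean per array was 10.76 to 10.81 in wt-progerin and 10.14 to 10.27 in S22A-progerin. KIF11, a spindle motor, fell by 0.82, MKI67, the Ki-67 antigen, by 0.74 and TOP2A by 0.62. PCNA (-0.24) lost its call with any 1 array left out, and AURKA (-0.34) kept its own in 2 of those 6 fits. Of 13 listed genes for kinases and phosphatases of lamina disassembly and return, and their partners, 6 were measured and all 6 fell. Among them were CDK1 (-0.76), which phosphorylates lamins at mitosis, CCNB1 (-0.60) and VRK1 (-0.44), the kinase of BAF. CDCA2 (-0.94), which brings a phosphatase to chromatin as mitosis ends, fell too. VRK2, PRKCA, PRKCB, PRKCD, PPP1CC, PPP2CA and PPP2R2A of that list were not analysed here. CDK1, PLK1, CCNB1 and CCNB2 stand in both lists. The share of proliferating cells was not measured here, and its part in the lower lamin and envelope values was not tested.

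**Figure D4:**
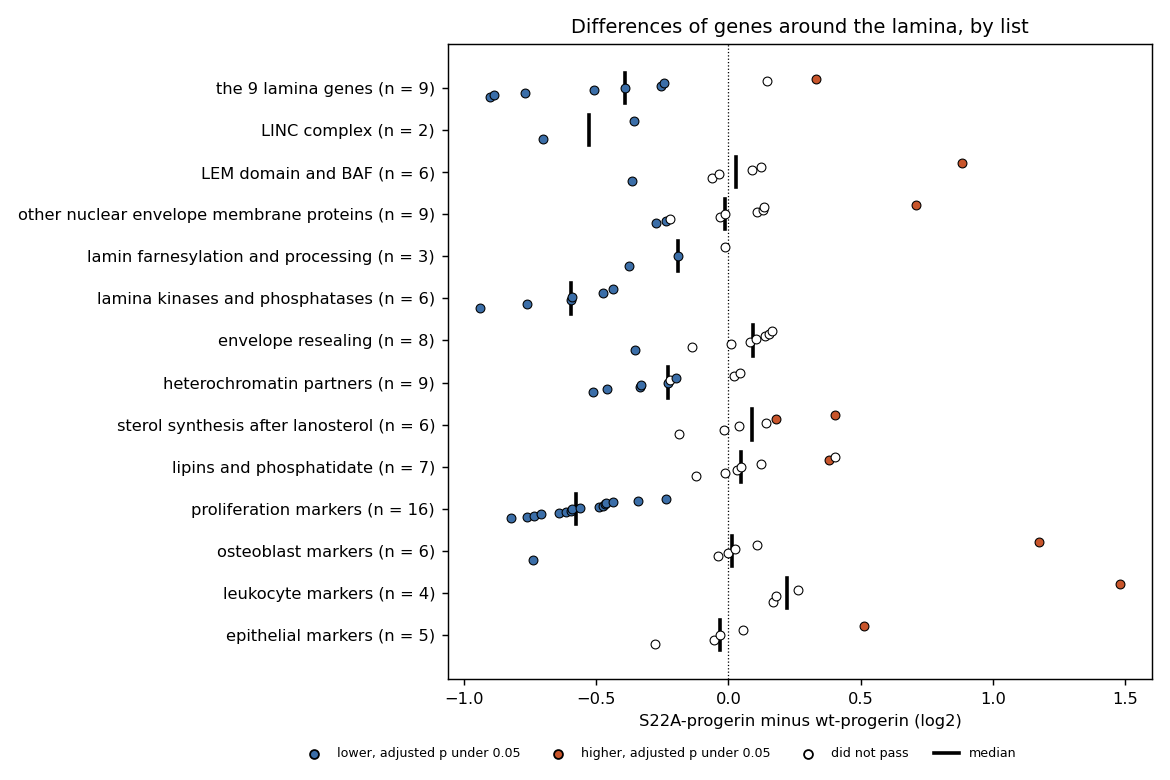
Difference between S22A-progerin and wt-progerin (x axis, log2) of every measured gene in each list, with the median of each list as a black bar and n the number measured. Blue points fell, orange points rose and open points did not pass at an adjusted p under 0.05. The proliferation markers and lamina kinases lie wholly to the left of 0, as 7 of the 9 lamina genes do.

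By root mean square distance between profiles over the 6 arrays, each gene centred on its own mean, the tested genes most like LMNB1 were PSIP1 (0.039), EZH2 (0.047), KIF11 (0.047), LNP1 (0.047) and PRC1 (0.047). Their differences ran from -0.95 to -0.82. PSIP1 encodes a chromatin tether of the LEDGF family, EZH2 the methyltransferase of Polycomb, and KIF11 and PRC1 proteins of the mitotic spindle. The profiles most like LMNA were those of ILDR1 (0.010), AMPD2 (0.011), ZNF358 (0.015), TEPSIN (0.017) and RNF13 (0.018). None of those passed the test. The distance is mostly set by the difference between the groups, so it ranks genes of a like difference.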

How the data were processed

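Per the submitters' processing notes, the authors made the deposited values with RMA in Affymetrix Expression Console, which corrects background, quantile normalizes and summarises each probe set on the log2 scale. Its versions and settings were not named there. No detection call was used, so absence and a low level look alike. RNA was extracted and biotin-labelled per the labels' protocols. Of 53617 probe sets 16098 had 1 gene symbol in the platform annotation, 0 had several and 37519 were not named here. For the 779 genes with several probe sets the brightest by mean was used.

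The comparison was fitted by lmFit and eBayes of limma (3.58.1, in R 4.3.3), 2 groups, no covariate, no filter, two-sided, with Benjamini-Hochberg adjustment over 14884 genes and a threshold of 0.05. Adjusted p-values are limma's, except for the pairs of members. Intervals are 95%. Differences between members within arrays were tested by exact permutation, with Benjamini-Hochberg adjustment over the 6 pairs. The SE of a pair is from the pooled variance of the groups and not from limma. The code was tested on simulated arrays. Members, lists and tests were chosen with earlier results of these data known. From each list the rule took up to 4 genes of smallest p and up to 3 in the rarer direction, and for LMNB1 and LMNA the 5 nearest profiles. Other list genes and neighbours were named after their values were seen. The number of arrays limits the precision.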

Additional observations from a re-analysis of the deposited data

How the results depend on the processing

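LMNB1, LMNB2, LBR, TMPO and LPIN1 kept direction and call under all 15 alternatives, and no member changed direction under any. LMNB1 ran from -0.92 to -0.84 and TMPO from -0.95 to -0.86. LMNA passed with repeated quantile normalization (0.17) and without the dimmer 50% of genes (0.15). It did not pass under the other 13, among them the arrays centred on the median (0.11). EMD did not pass with repeated quantile normalization (-0.22). Members called lower were 4 at an adjusted p under 0.01, with 2078 genes then called in all. Leaving out 1 array gave 4 to 6 members called lower, with EMD from -0.29 to -0.18, LEMD3 from -0.29 to -0.23 and NRM from -0.48 to -0.33. The deviations of arrays with the same replicate number correlated at -0.019, -0.055 and -0.0056, so no effect shared by a replicate number was seen. These values cannot show whether arrays with the same number were handled together. With the replicate block 4 members were called lower, as EMD (-0.25), LEMD3 (-0.26) and NRM (-0.39) missed, and 2990 genes passed in all. As a random replicate block, EMD (-0.25) missed. Some of these fits had fewer arrays or residual degrees of freedom, and the cause of the changes was not tested.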
